A study of Mus musculus with 5 samples.

Results

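The genes described here encode the last steps of oxidative phosphorylation: respiratory complex III (cytochrome bc1), cytochrome c, complex IV (cytochrome c oxidase) and ATP synthase. Members were the protein-coding rows of the deposited table whose symbol began with Uqcr, Atp5, mt-Co, mt-Cytb, mt-Atp or with Cox and a digit of 4 to 8, together with Cyc1 and Cycs. This gave 50 of the 12446 listed genes, of which 11586 were protein-coding. Of the 50, 47 are listed under names of subunits, of cytochrome c or, in the case of Atp5l-ps1, of a near-identical copy of a subunit gene. The other 3 carry a matching symbol without being subunits: Cox4nb is an older name of Emc8, a protein of the endoplasmic reticulum membrane complex, Atp5s of Dmac2l and Atp5sl of Dmac2. They are counted apart where stated.

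OSKM-CMs were 3 libraries (replicates 1, 2 and 3) of cardiomyocytes isolated from hearts of male C57BL/6 mice that had received 4 adeno-associated virus vectors for tagged Oct4, Sox2, Klf4 and Myc. Control-CMs were 2 libraries (replicates 3 and 5) of cardiomyocytes from mice given the corresponding vector for blue fluorescent protein (BFP). Relative doses, in vector genomes per gram on a common scale, were 2.5 for each of the 4 factor vectors and 10 for the BFP vector. The dose per vector thus differed between the groups, while the total dose over all vectors was the same. Every vector carried the promoter of cardiac troponin T (cTnT), so that expression was directed to heart muscle cells. Injection was into the thoracic cavity at 8 weeks, and age is given as 12 to 14 weeks for both groups. Whether the libraries are from different mice is not stated, so p-values here reflect the spread among these 5 samples, part of which may be technical.

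Complex III takes electrons from ubiquinol and passes them to cytochrome c, complex IV passes them on to oxygen, and ATP synthase uses the resulting proton gradient to make ATP. Each of the 3 complexes joins a few subunits encoded by mitochondrial DNA, which form the core of the proton path, to many encoded in the nucleus. Cardiac muscle is among the tissues richest in these complexes. Several nuclear subunits of complex IV exist as isoforms: in rodent heart and skeletal muscle Cox6a2, Cox7a1 and Cox8b predominate, while Cox6a1, Cox7a2 and Cox8a are made in most tissues and earlier in heart development.

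Promoter sequences are shown for the isoform genes other than Cox6a2, because these members moved apart from one another within 1 complex. They come from RefSeq (GRCm38.p6), which is not the build named for the study's alignment (mm9), and cover the 250 bases before the annotated start, written 5′ to 3′ on the gene's strand. Capitals mark matches to 4 short motifs searched on both strands: CGCATGCG (NRF1 core), CCGGAAG (ETS family, which includes GABP), AAGGTCA (ERR) and AANATGGCG (YY1).
Cox6a1, minus strand, chr5:115348959-115349208: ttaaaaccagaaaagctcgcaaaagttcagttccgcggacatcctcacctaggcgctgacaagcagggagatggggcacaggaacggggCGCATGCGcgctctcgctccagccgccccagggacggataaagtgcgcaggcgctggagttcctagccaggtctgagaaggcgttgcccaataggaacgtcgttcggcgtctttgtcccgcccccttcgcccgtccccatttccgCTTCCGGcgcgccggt
Cox8a, minus strand, chr19:7217617-7217866: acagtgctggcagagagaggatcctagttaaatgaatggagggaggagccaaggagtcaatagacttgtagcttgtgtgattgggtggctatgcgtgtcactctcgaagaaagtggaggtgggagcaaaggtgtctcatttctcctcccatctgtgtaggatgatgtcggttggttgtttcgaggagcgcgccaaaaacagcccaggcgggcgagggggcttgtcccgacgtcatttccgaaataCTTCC
Cox7a2, minus strand, chr9:79759854-79760103: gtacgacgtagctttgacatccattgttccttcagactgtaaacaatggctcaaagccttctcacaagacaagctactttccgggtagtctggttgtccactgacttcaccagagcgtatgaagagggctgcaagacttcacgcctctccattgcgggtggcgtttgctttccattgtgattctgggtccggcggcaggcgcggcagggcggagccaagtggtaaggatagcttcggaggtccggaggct
Cox7a1, plus strand, chr7:30183921-30184170: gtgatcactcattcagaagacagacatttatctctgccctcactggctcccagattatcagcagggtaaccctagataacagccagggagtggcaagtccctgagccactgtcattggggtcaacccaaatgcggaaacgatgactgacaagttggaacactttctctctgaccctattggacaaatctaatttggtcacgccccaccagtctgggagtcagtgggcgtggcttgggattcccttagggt
Cox8b, minus strand, chr7:140900447-140900696: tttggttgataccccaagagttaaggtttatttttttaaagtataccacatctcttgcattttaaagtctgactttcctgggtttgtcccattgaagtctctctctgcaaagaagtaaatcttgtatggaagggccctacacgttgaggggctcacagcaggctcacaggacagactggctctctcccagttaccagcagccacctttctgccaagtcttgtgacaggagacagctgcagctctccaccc
The Cox6a1 stretch held an NRF1 core and an ETS match, and the Cox8a stretch ended in an ETS match that ran past the annotated start. The Cox7a2, Cox7a1 and Cox8b stretches held none of the 4. The muscle genes Cox7a1 and Cox8b had 4 and 1 CG dinucleotides in these 250 bases, the broad genes Cox6a1, Cox8a and Cox7a2 had 26, 11 and 14, and the median over the same 250 bases of 32851 RefSeq windows was 6. RefSeq windows were found for 33 of the 50 members (37 windows of 300 bases, reaching 50 bases past the start). Of these windows, 21.6% held the NRF1 core, against 1.87% of all windows. The ETS motif was in 27.0% of member windows and 8.86% of all windows, the ERR motif in 10.8% and 4.72%, and YY1 in 13.5% and 2.38%. The 5 member windows with YY1 came from 4 genes, since 2 overlapping windows of the non-subunit Atp5sl held the same match. No matches of different motifs overlapped in member windows, and 16 of the 33 genes had no match to any of them. A match here is a match of letters, not a measured binding site.

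The reads behind these values are few. Reads over the listed genes totalled between 2691796 and 2780751 in OSKM-CMs libraries and 3519628 and 3861805 in Control-CMs libraries. The vectors' factors were seen in the libraries labelled with them: Pou5f1 (Oct4), Sox2, Klf4 and Myc had between 179 and 391 reads in every OSKM-CMs library, while in Control-CMs Pou5f1 and Sox2 had 0 reads, Myc 4 and 5, and Klf4 34 and 50. Levels are given as scaled RPKM, the deposited values (reads per kilobase of gene and per unit of library size) after scaling by trimmed mean of M values (TMM). Comparisons of levels between genes depend on the gene lengths behind these values, which were inferred from them. A gene is said to have risen or fallen where limma on log2(scaled RPKM + 1) gave a Benjamini-Hochberg adjusted p below 0.05 over the 10901 genes tested. All 50 members were tested, and 45 had at least 100 reads in every library. Cardiomyocyte markers were high in both groups but lower in OSKM-CMs: the 11 markers summed to 18844, 22090 and 20080 scaled RPKM in OSKM-CMs and 31694 and 34573 in Control-CMs, and 8 of the 11 fell. The 9 listed fibroblast markers summed to 199, 92.7 and 207 scaled RPKM in OSKM-CMs and 76.2 and 38.7 in Control-CMs, and 4 of the 8 tested rose. These were Postn, Col3a1, Col1a2 and Col1a1, while Dcn, Pdgfra, Lum and Dpt overlapped between the groups and did not pass. Postn alone made up 47.4, 20.6 and 60.5 of the sums in OSKM-CMs and 1.48 and 1.12 in Control-CMs. The summed endothelial markers ran from 105 to 226 in OSKM-CMs, with 308 and 356 in Control-CMs, and 3 of the 11 fell (Kdr, Egfl7 and Fabp4). Fabp4 alone made up 133, 60.8 and 109 of these sums in OSKM-CMs and 220 and 206 in Control-CMs. The other 8 did not pass, and Vwf was the only endothelial marker with a positive log2 fold change (0.64). The 10 mural markers summed to 265, 404 and 328 in OSKM-CMs and 226 and 232 in Control-CMs, with 3 higher, 1 lower and 6 not passing. Acta2 alone made up 142, 319 and 215 of these sums in OSKM-CMs and 45.9 and 69.4 in Control-CMs. The other 9 summed to 123, 85.3 and 114 in OSKM-CMs and 180.4 and 163 in Control-CMs, and they did not move together. Abcc9, the 1 mural marker called lower, made up 13.8, 16.6 and 12.1 in OSKM-CMs and 81.9 and 79.6 in Control-CMs. Cspg4 and Pdgfrb rose 12.6-fold and 2.03-fold. Beside these marker counts, 14.4% of all genes tested were called lower and 15.7% higher. None of these markers that the table held was at 0 throughout a group, and of the 9 macrophage and leukocyte markers listed, 0 of the 7 tested passed the threshold. In such bulk libraries fewer cells of a type and less RNA per cell cannot be told apart, and the part of these other cells in the results below was not tested.

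Most genes of each of the 3 complexes were lower in OSKM-CMs, and the only members that rose were inside complex IV. Of the 50 members, 42 fell, 2 rose (Cox6a1 and Cox8a) and 6 did not pass (limma, adjusted p), with a median log2 fold change of -0.70 against 0.02 over all genes tested. Without the 3 non-subunits, 42 of 47 fell, 2 rose and 3 did not pass. Among all genes, 14.4% were called lower and 15.7% higher. All OSKM-CMs libraries lay below both Control-CMs libraries for 45 members, and above both for 3, where 28.1% and 29.8% of all genes did so. The count of lower members was 21 when values were scaled by library totals alone, and the same 2 members rose, beside 5.96% of all genes lower and 36.5% higher. That scaling moved the median of all genes by 0.34 log2 units to 0.36, and higher genes were 86.0% of all calls, against 52.3% with TMM. Relative to the median of all genes, the members' median was -0.63 with library totals and -0.71 with TMM.

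**Figure D1:**
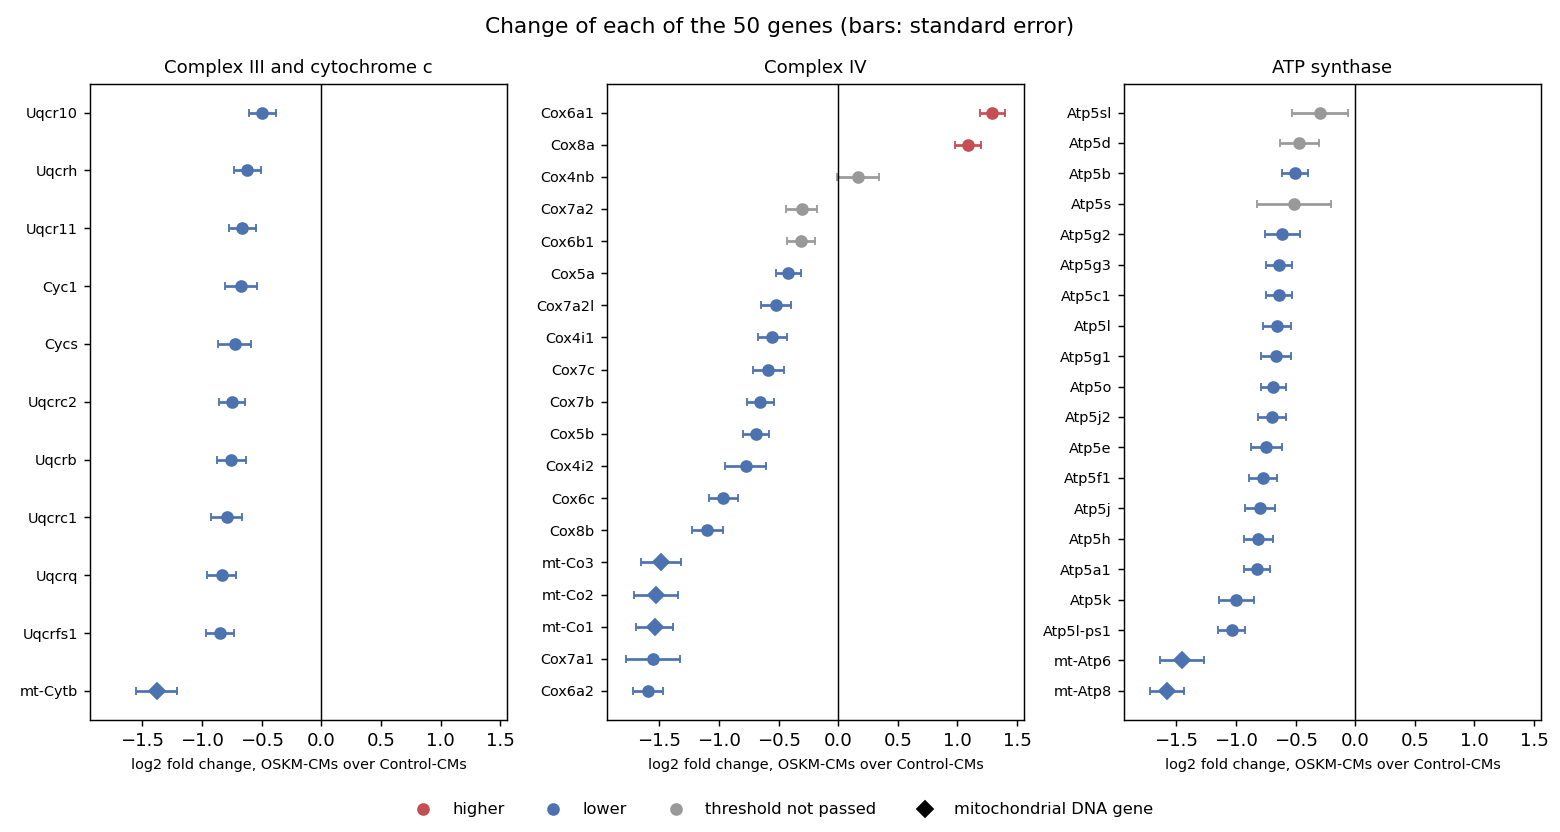
Log2 fold change (OSKM-CMs over Control-CMs) of the 50 members on the log2(scaled RPKM + 1) scale, ordered within each complex, with bars for the standard error. Diamonds mark mitochondrial DNA genes, which lie between -1.38 and -1.58, and Cox6a1 and Cox8a are the only points called higher.

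The muscle and broad isoforms of subunit VIa, a regulatory subunit of complex IV, moved in opposite directions. Cox6a1 (ENSMUSG00000041697.8), the broad isoform, stood at 196, 212 and 195 scaled RPKM in OSKM-CMs replicates 1, 2 and 3 and at 81.7 and 81.1 in Control-CMs replicates 3 and 5. It rose 2.47-fold, and limma gave a log2 change of 1.29 (SE 0.10, adjusted p = 0.00024). Cox6a2 (ENSMUSG00000030785.7), the muscle isoform, stood at 632, 716 and 579 scaled RPKM in OSKM-CMs and at 1835 and 2041 in Control-CMs. Its log2 fold change was -1.59 (SE 0.13, limma adjusted p = 0.000236), the most negative of all 50 members. The groups did not overlap for either gene, and the muscle isoform remained the more abundant of the pair in every library.

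Subunit VIII, a small subunit that spans the inner membrane, showed the same opposition, and its isoforms lay near parity in scaled RPKM in OSKM-CMs. Cox8a (ENSMUSG00000035885.4), the broad isoform, measured 471, 437 and 423 scaled RPKM in OSKM-CMs and 201 and 215 in Control-CMs. It rose 2.13-fold, and limma gave a log2 change of 1.09 (SE 0.11, adjusted p = 0.000498). Cox8b (ENSMUSG00000025488.8), the muscle isoform, measured 464, 500.4 and 392 scaled RPKM in OSKM-CMs and 915 and 1013 in Control-CMs, a log2 fold change of -1.10 (SE 0.13, limma adjusted p = 0.00119). In scaled RPKM the broad isoform was the higher of the pair in OSKM-CMs replicates 1 and 3, and the muscle isoform in replicate 2. In both Control-CMs libraries the muscle isoform was higher by a wide margin. The order in OSKM-CMs rests on the gene lengths behind the values, 543 bases for Cox8a and 360 for Cox8b. In reads, Cox8a was the higher in every OSKM-CMs library (787, 740 and 704 against 514, 562 and 433). In Control-CMs Cox8a had 340 and 359 reads against 1025 and 1124.

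Subunit VIIa differed: its muscle isoform fell and the change of its broad isoform did not pass the threshold. Cox7a1 (ENSMUSG00000074218.2), the muscle isoform, had 879.9, 1378 and 825 scaled RPKM in OSKM-CMs and 2735 and 3144 in Control-CMs (log2 fold change -1.55, SE 0.23, limma adjusted p = 0.00304). Replicate 2 was above the other OSKM-CMs libraries but still below both Control-CMs libraries. Cox7a2 (ENSMUSG00000032330.6), the broad isoform, had 581, 636 and 576 scaled RPKM in OSKM-CMs and 665 and 822 in Control-CMs. Its log2 fold change of -0.31 (SE 0.13, limma adjusted p = 0.107) became 0.11 with library totals alone, where it did not pass either.

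**Figure D2:**
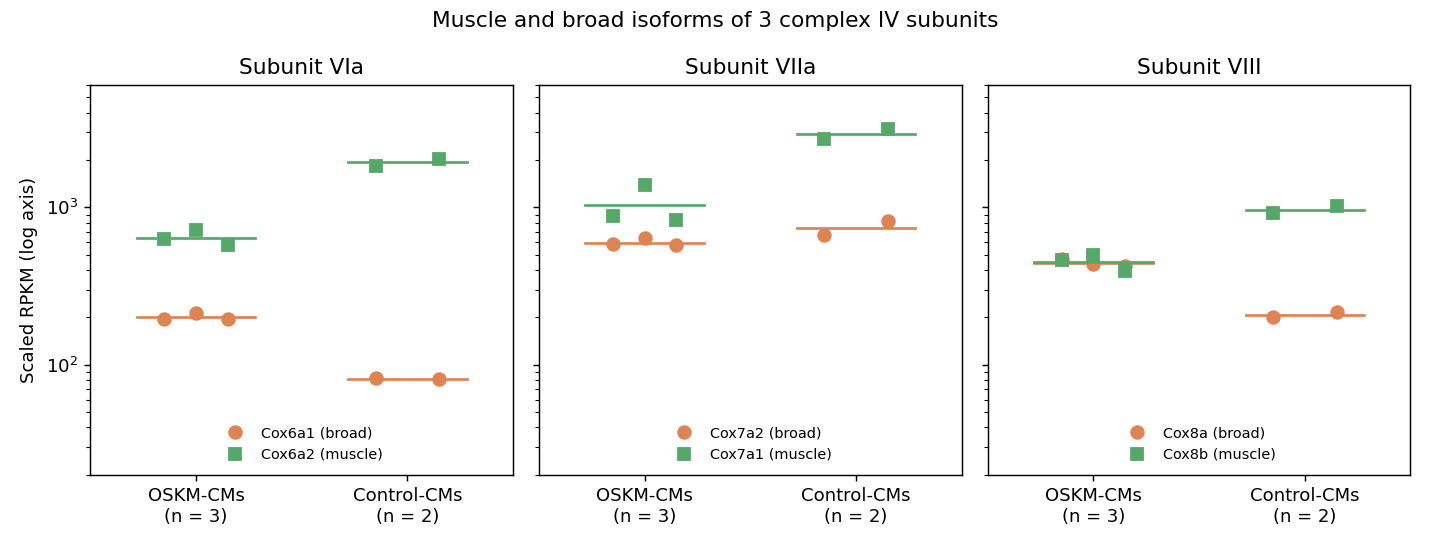
Scaled RPKM (log axis) of the broad (circles) and muscle (squares) isoforms of subunits VIa, VIIa and VIII in each library, with lines at the group means (n = 3 OSKM-CMs, n = 2 Control-CMs). The isoforms of subunit VIII overlap in OSKM-CMs, at 444 ± 24.7 for Cox8a and 452 ± 55 for Cox8b (SD).

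The composition of each pair can be read without any scaling between libraries, since both isoforms come from the same library. The shares depend on the gene lengths behind RPKM, while the fold differences of the ratios between the groups do not. Cox6a1 made up 23.9% ± 1.2 of the summed scaled RPKM of its pair in OSKM-CMs and 4.04% ± 0.31 in Control-CMs (SD, n = 3 and 2). Cox8a made up 49.6% ± 2.7 of its pair in OSKM-CMs and 17.8% ± 0.39 in Control-CMs. Cox7a2 made up 37.5% ± 5.2 of its pair in OSKM-CMs, with replicate 2 lowest at 31.6%, and 20.1% ± 0.82 in Control-CMs. The broad-to-muscle ratio was thus 7.45-fold, 4.56-fold and 2.37-fold higher in OSKM-CMs for subunits VIa, VIII and VIIa, which is 2.90, 2.19 and 1.24 on the log2 scale. For all 3 ratios every OSKM-CMs library lay above both Control-CMs libraries, and the exact two-sided permutation test gave p = 0.2, the smallest value that 3 against 2 samples can give.

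The summed output of the pairs did not stay level. The Cox6a1 and Cox6a2 sum was 844 ± 77.9 scaled RPKM in OSKM-CMs and 2019 ± 146 in Control-CMs, a ratio of 0.418. The Cox7a sum, over Cox7a1 and Cox7a2, had a ratio of 0.441, and the Cox8 sum a ratio of 0.764. On the log2 scale these sums changed by -1.26, -1.20 and -0.39, beside a median of -0.59 over the 9 nuclear complex IV subunits outside the pairs. The means differed by 119 scaled RPKM for Cox6a1 and by -1295 for Cox6a2.

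**Figure D3:**
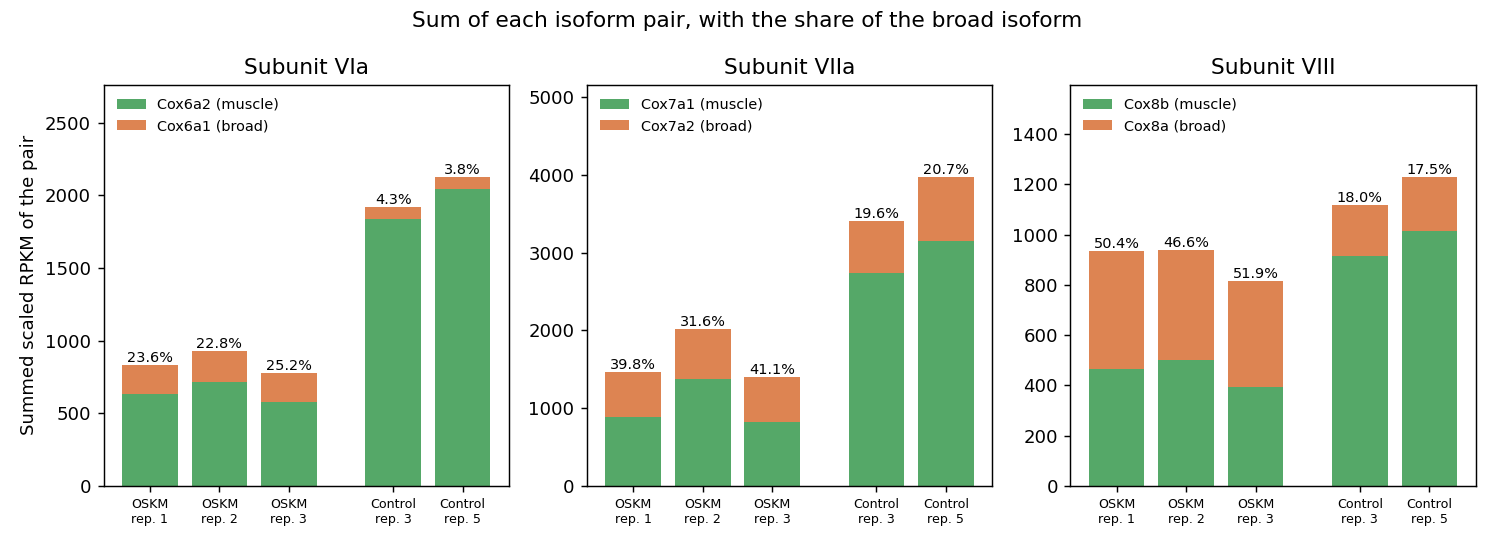
Summed scaled RPKM of each isoform pair in each library, split into muscle (lower part) and broad (upper part), with the share of the broad isoform printed above each bar. The broad share is larger in each OSKM-CMs library than in either Control-CMs library, while the height of every OSKM-CMs bar is below both Control-CMs bars.

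Sharing of reads between isoforms was checked on GENCODE M21 transcripts. No stretch of 50 bases was common to Cox6a1 and Cox6a2, to Cox7a1 and Cox7a2, or to Cox8a and Cox8b. Cox7a1, Cox7a2, Cox8a and Cox8b shared none with any other gene either, while 9.16% of the Cox6a1 stretches and 3.33% of the Cox6a2 stretches also occurred in another gene. Of the 50 members, 17 shared no stretch with another gene and 26 shared under 5%. Shares were larger for several nuclear subunits, among them Uqcrb (25.5%) and Cox7c (22.1%).

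The ratios between the paralogues of the ATP synthase c-ring differed little between the groups. The 3 genes of this ring, the rotor in the membrane, encode the same mature protein, and all fell: Atp5g1 by 0.66, Atp5g2 by 0.61 and Atp5g3 by 0.64 on the log2 scale. With library totals alone the values were -0.24, -0.19 and -0.22, and none of the 3 passed (limma adjusted p = 0.109, 0.251 and 0.121). Atp5g1 stood at 213, 238 and 208 scaled RPKM in OSKM-CMs and 317 and 381 in Control-CMs. Atp5g2 stood at 189, 222 and 209 in OSKM-CMs and 273 and 365 in Control-CMs, and Atp5g3 at 310.0, 339 and 298 in OSKM-CMs and 473 and 509.7 in Control-CMs. The log2 ratio of Atp5g1 to Atp5g3 differed by -0.02 and that of Atp5g2 to Atp5g3 by 0.03 between the groups (exact permutation p = 0.8 and 1). The SDs of these ratios in Control-CMs were 0.11 and 0.22. With 3 against 2 samples this test cannot give a p below 0.2, so it could not have called a shift of any size. Of the Atp5g2 stretches of 50 bases, 38.4% also occurred in other genes, so its level is uncertain.

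Among the subunit IV isoforms, Cox4i1 is the common form, and it was the nuclear member with the highest mean scaled RPKM over the 5 libraries. Cox4i1 had 1758, 1889 and 1636 scaled RPKM in OSKM-CMs and 2443 and 2719 in Control-CMs (log2 fold change -0.55, limma adjusted p = 0.0116). Cox4i2, a form known from lung and low oxygen, rested on 8, 7 and 8 reads in OSKM-CMs and 17 and 13 in Control-CMs. At that depth its log2 fold change of -0.78 (SE 0.17, limma adjusted p = 0.0123) is imprecise: it did not pass with limma voom on recovered reads (adjusted p = 0.12), with library totals (0.0967) or without Control-CMs replicate 3 (0.0728). It was at most 6.98 scaled RPKM in any library. Cox7a2l, a paralogue of subunit VIIa whose long form joins complexes III and IV into supercomplexes and whose short form is carried by C57BL/6 mice, had 152, 181 and 154 scaled RPKM in OSKM-CMs and 221 and 244 in Control-CMs (log2 fold change -0.52, limma adjusted p = 0.0165). Its ratio to Cox7a1 was 2.04-fold higher in OSKM-CMs (exact permutation p = 0.2, the smallest possible).

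The other nuclear complex IV subunits had smaller changes than the muscle isoforms. Of the 9 outside the pairs, 8 fell, Cox6b1 did not pass, and log2 fold changes ran from -0.96 to -0.31. With library totals alone 1 of the 9, Cox6c, passed, and their median was -0.17. Cox6c, a small membrane-spanning subunit, had the most negative change of these: 148, 170.1 and 149.8 scaled RPKM in OSKM-CMs against 282 and 329 in Control-CMs (limma adjusted p = 0.00144). Cox5b, on the matrix side of the complex, changed by -0.69, and Cox7b and Cox7c by -0.65 and -0.59. Cox5a had a log2 fold change of -0.42 (adjusted p = 0.0191) with TMM scaling but 0.00 with library totals alone. Cox6b1, which faces the intermembrane space, had 1386, 1394 and 1335 scaled RPKM in OSKM-CMs and 1582 and 1835 in Control-CMs, with a log2 fold change of -0.31 (adjusted p = 0.0743) that became 0.11 with library totals. The non-subunit Cox4nb lay above both controls in all OSKM-CMs libraries, at 3.16, 4.03 and 3.04 scaled RPKM against 2.87 and 2.96, without passing (log2 fold change 0.17, adjusted p = 0.502).

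All 10 complex III genes fell. The 9 nuclear ones had log2 fold changes between -0.85 and -0.49 with a median of -0.75. Their median level was 355, 415 and 362 scaled RPKM in OSKM-CMs and 569.7 and 674 in Control-CMs, so the groups did not overlap. Uqcrfs1, the Rieske iron-sulfur protein that accepts electrons from ubiquinol, changed most among the nuclear genes, with 355, 422 and 362 scaled RPKM in OSKM-CMs and 667 and 699.9 in Control-CMs (log2 fold change -0.85, SE 0.12, limma adjusted p = 0.00198). Uqcr10, a small accessory subunit, changed least, with 437, 499 and 474 scaled RPKM in OSKM-CMs and 633 and 691 in Control-CMs (log2 fold change -0.49, adjusted p = 0.0142). The core proteins Uqcrc1 and Uqcrc2 changed by -0.79 and -0.75, and Cyc1, the cytochrome that hands electrons to cytochrome c, by -0.67. With library totals alone 6 of the 10 still passed: Uqcrb, Uqcrc1, Uqcrc2, Uqcrfs1, Uqcrq and mt-Cytb.

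Cytochrome c itself, the soluble carrier between complexes III and IV, is encoded by Cycs in somatic tissue. Cycs had 100.3, 133 and 114 scaled RPKM in OSKM-CMs and 185 and 196 in Control-CMs (log2 fold change -0.73, SE 0.14, limma adjusted p = 0.00696). Of its stretches of 50 bases, 26.1% occurred in other genes, and with library totals it did not pass (adjusted p = 0.103).

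In ATP synthase, 17 of 20 members fell and 0 rose. With library totals alone 8 of the 20 fell: Atp5a1, Atp5f1, Atp5h, Atp5j, Atp5k, Atp5l-ps1, mt-Atp6 and mt-Atp8. Atp5a1, the alpha subunit of the catalytic head, was the member of the complex with the highest mean scaled RPKM. It had 1127, 1221 and 1076 scaled RPKM in OSKM-CMs and 1998 and 2033 in Control-CMs (log2 fold change -0.82, SE 0.11, limma adjusted p = 0.00166). Atp5b, the beta subunit that holds the catalytic sites, changed by -0.50, with 1084, 1193 and 1054 scaled RPKM in OSKM-CMs and 1563 and 1577 in Control-CMs (adjusted p = 0.0123). In scaled RPKM the mean of alpha transcripts was thus 1.03 times that of beta in OSKM-CMs and 1.28 times in Control-CMs. This order depends on the gene lengths, since in reads Atp5b was above Atp5a1 in every library. Atp5b had 14111, 15739 and 13663 reads in OSKM-CMs against 10837, 11896 and 10302 for Atp5a1. In Control-CMs Atp5b had 20562 and 20544 reads against 19414 and 19566. In the central stalk, Atp5c1 (gamma) fell by 0.64 and Atp5e (epsilon) by 0.74 on the log2 scale. Atp5d (delta), at 164, 200.2 and 146 scaled RPKM in OSKM-CMs and 209 and 261 in Control-CMs, did not pass (log2 fold change -0.47, adjusted p = 0.0661).

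The peripheral stalk, which keeps the head from turning, is made of Atp5f1, Atp5h, Atp5j and Atp5o, and all 4 fell, by 0.69 to 0.81 on the log2 scale. Of the Atp5o stretches of 50 bases, 41.6% also occurred in other genes, so its level is uncertain. The shares were 19.9% for Atp5h, 14.3% for Atp5f1 and 8.89% for Atp5j. Among the small membrane subunits, Atp5k (subunit e), which helps ATP synthases pair into dimers, had the most negative change of the nuclear subunits of the complex, with 361, 433 and 376 scaled RPKM in OSKM-CMs and 679.7 and 888 in Control-CMs (log2 fold change -0.996, SE 0.15, limma adjusted p = 0.0026). Atp5l (subunit g) and Atp5j2 (subunit f) fell by 0.65 and 0.70. Atp5l-ps1, the copy of Atp5l, had 21, 22 and 22 reads in OSKM-CMs and 44 and 47 in Control-CMs. Of its stretches of 50 bases, 55.1% also occurred in other genes, Atp5l first, so its log2 fold change of -1.03 is not separate evidence. The non-subunits Atp5s and Atp5sl overlapped between the groups: Atp5s had 11.9, 10.4 and 5.51 scaled RPKM in OSKM-CMs and 11.1 and 15.4 in Control-CMs (adjusted p = 0.255), and Atp5sl 7.94, 14.6 and 9.31 in OSKM-CMs and 13.4 and 12.3 in Control-CMs (adjusted p = 0.378).

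All 6 members encoded by mitochondrial DNA fell, by more than any nuclear member other than Cox6a2 and Cox7a1. Their log2 fold changes ran from -1.58 to -1.38 with a median of -1.51, and they lay closer together than the 34 nuclear subunits outside the pairs and without Atp5l-ps1, which ran from -0.996 to -0.31 with a median of -0.68. With library totals alone the median of the 6 was -1.09, and all 6 passed. mt-Co1, the catalytic subunit of complex IV and the gene with the highest level in the table, stood at 48074, 45092 and 41349 scaled RPKM in OSKM-CMs and 115431 and 146637 in Control-CMs (log2 fold change -1.54, SE 0.15, limma adjusted p = 0.000522). mt-Co2, which holds the first copper centre, stood at 1412, 1368 and 1055 in OSKM-CMs and 3110 and 4280 in Control-CMs. mt-Co3, the other core subunit, stood at 2318, 2219 and 1876 in OSKM-CMs and 5112 and 6970 in Control-CMs.

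mt-Cytb, the cytochrome b of complex III, had 7877, 7044 and 6044 scaled RPKM in OSKM-CMs and 15575 and 21005 in Control-CMs (log2 fold change -1.38, SE 0.17, limma adjusted p = 0.00134). mt-Atp6, the membrane subunit of the ATP synthase proton channel, had 578, 528 and 432 in OSKM-CMs and 1173 and 1662 in Control-CMs, and mt-Atp8, beside it, 517, 497 and 440.3 in OSKM-CMs and 1276 and 1642 in Control-CMs. For all 6 genes OSKM-CMs replicate 3 was lowest and Control-CMs replicate 5 highest, and the groups did not overlap. mt-Atp6 and mt-Atp8 overlap in the genome, and copies of mitochondrial DNA annotated as nuclear pseudogenes hold every 50-base stretch of mt-Co2, 99.9% of those of mt-Co3, 99.5% of mt-Atp6 and 51.1% of mt-Co1, so the levels of these 4 depend on how shared reads were counted. mt-Cytb and mt-Atp8 shared no such stretch with another transcript, and their log2 fold changes were -1.38 and -1.58.

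**Figure D4:**
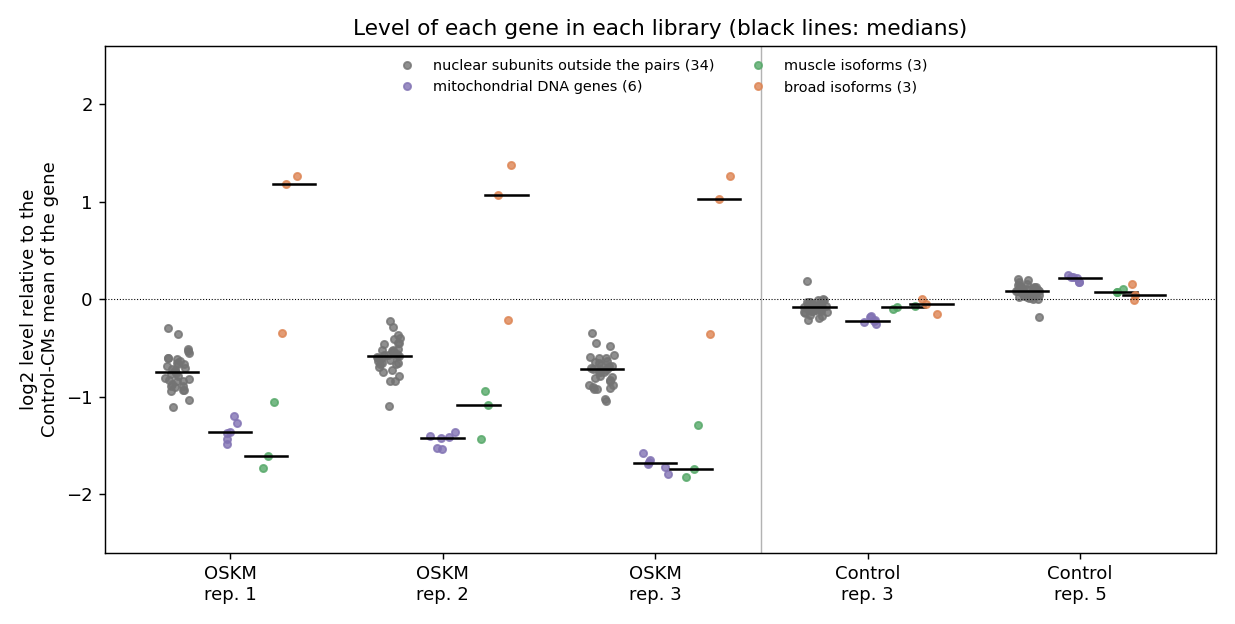
Log2 level of each gene in each library relative to its mean log2 level in Control-CMs, for 34 nuclear subunits, 6 mitochondrial DNA genes and the 3 muscle and 3 broad isoforms, with black lines at the medians. The mitochondrial DNA genes lie below the nuclear subunits in every OSKM-CMs library (medians -1.37, -1.42 and -1.68 against -0.75, -0.58 and -0.72), and Cox7a2 is the broad isoform that stays near the nuclear subunits.

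Transcripts from mitochondrial DNA made up less of the members' total in OSKM-CMs. Reads of the 6 mitochondrial genes were 77.4%, 74.2% and 74.7% of all member reads in OSKM-CMs and 83.5% and 85.6% in Control-CMs, a difference of -9.10 percentage points. The exact permutation test gave p = 0.2, the smallest this design allows. The log2 ratio of mt-Co1 to Cox4i1 was 4.67 ± 0.098 in OSKM-CMs and 5.66 ± 0.13 in Control-CMs (SD). That of mt-Cytb to Uqcrc2 was 4.55 ± 0.25 in OSKM-CMs and 5.18 ± 0.27 in Control-CMs, and that of mt-Atp6 to Atp5b was -1.12 ± 0.19 in OSKM-CMs and -0.17 ± 0.35 in Control-CMs. Each of these ratios was lower in every OSKM-CMs library than in either Control-CMs library (exact permutation p = 0.2 each). All 50 members together took 12.4%, 12.2% and 11.2% of the reads of the OSKM-CMs libraries and 21.5% and 24.3% of those of the Control-CMs libraries. The 44 nuclear members alone took 2.81%, 3.15% and 2.83% in OSKM-CMs and 3.56% and 3.49% in Control-CMs.

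The nuclear subunits also shared an order among libraries of the same group. OSKM-CMs replicate 2 was the highest of its group for 30 of the 34 nuclear subunits outside the pairs, and Control-CMs replicate 5 for 32 of 34. Replicate 2 also had the highest cardiomyocyte marker sum and the lowest fibroblast and endothelial sums of the OSKM-CMs libraries. Single cardiomyocyte markers differed: in replicates 1, 2 and 3 Actc1 stood at 5281, 7433 and 6651 scaled RPKM and Tnnt2 at 3267, 2852 and 3193. The mural sum was highest in replicate 2 only with Acta2, and the other 9 mural markers summed lowest there (123, 85.3 and 114). The part of these cells in this order was not tested. In the summed cardiomyocyte markers the log2 ratio of OSKM-CMs to Control-CMs means was -0.70. The log2 fold changes of the single markers ran from -1.53 to 0.33 with a median of -0.61. The part of cardiomyocyte content in the members' lower levels was not tested.

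The neighbouring complexes changed in the same direction. Of 36 nuclear complex I genes, 33 fell and 0 rose, with a median log2 fold change of -0.84. Ndufa3 and Ndufa13, small accessory subunits, both changed by -1.20. All 7 mitochondrial complex I genes fell, from mt-Nd1 at -1.91 to mt-Nd4l at -0.76, a wider range than that of the 6 members described here. The 4 complex II genes fell too, Sdha by 0.97 and Sdhb by 0.92. Ndufa4, which is now counted as a complex IV subunit, fell by 0.63, while its relative Ndufa4l2, at a mean of 2.94 ± 2.16 scaled RPKM in OSKM-CMs and 3.21 ± 0.70 in Control-CMs (SD), did not pass (adjusted p = 0.722).

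Assembly factors of complex IV gave mixed results. Of 17 tested, 4 fell, 1 rose and 12 did not pass, beside 14.4% of all genes lower and 15.7% higher. Higd2a, which helps to build the module around mt-Co3, had 50.3, 46.6 and 39.9 scaled RPKM in OSKM-CMs and 92.1 and 99.98 in Control-CMs (log2 fold change -1.06, limma adjusted p = 0.0013). Lrpprc, which stabilises mitochondrial messenger RNAs, fell by 0.61. Cox19, a copper-handling factor, rose 2.59-fold. It had 23.8, 25.2 and 24.6 scaled RPKM in OSKM-CMs and 9.28 and 9.65 in Control-CMs (log2 fold change 1.29, limma adjusted p = 0.00039). Of the 4 complex III factors tested, 1 fell (Uqcc, by 0.84). Of the 6 factors and regulators of ATP synthase, 2 fell, Usmg5, a small subunit outside the naming rule, by 0.72, and Atpaf1, which assembles the catalytic head, by 0.51.

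The authors' deposited table gave the same counts from its own test: 42 members with an FDR below 0.05 and a lower level, 2 higher and 6 above that threshold, with the same sign as here for all 50. The members differed in 2 cases: in the authors' deposited table Cox6b1 was lower at an FDR of 0.042 and Cox4i2 was not called, at an FDR of 0.106. Of all genes in the authors' deposited table, 15.4% were lower and 16.4% higher at that FDR.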

How the data were processed

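RNA from 3 OSKM-CMs and 2 Control-CMs libraries was compared. Per the submitters' processing notes, reads were handled with CASAVA 1.8.2, STAR 2.5.3, FastQC, HTSeq and Trimmomatic on the build mm9; annotation, strand setting and the treatment of shared reads are not given in the sources used here. The authors deposited 1 RPKM value per gene and library (a unit inferred from the values), a log2 fold change and a log2 average abundance, a likelihood-ratio score, and a p-value with its FDR.

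RPKM of all 12446 genes (100%) were whole multiples of the value of 1 read within 0.0001 reads, so reads were recovered. For 212 genes a common factor was set from the authors' average abundance, and the sum of reads matched each library total to within 28. TMM factors (30% of log ratios and 5% of abundances trimmed) were computed from these reads in Python 3.11.15. Log2(scaled RPKM + 1) of the 10901 genes with a mean of at least 1 was tested by limma 3.58.1 under R 4.3.3 with trend and robust moderation, two-sided, with Benjamini-Hochberg adjustment at 0.05. Adding 1 understates changes of low genes. Ratios were tested by exact permutation over libraries. Scripts were tested on simulated data.

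Alternatives were other scalings, pseudocounts, filters, moderation settings, limma voom on recovered reads and leaving out each library. Members and gene lists were chosen with earlier results of these data known. Every member could be named; of other pathway lists, only called genes with the most negative or most positive changes were (all called genes where 5 or fewer passed), with Ndufa4 and Ndufa4l2. Marker genes and the 4 factors are named beside results they touch. The lists held markers of cardiomyocytes, fibroblasts, endothelial, mural, macrophage and leukocyte, erythroid, skeletal muscle, epicardial, neural and Schwann, and fat cells. Precision is limited by library totals of 2691796 to 3861805 reads.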

Additional observations from a re-analysis of the deposited data

How the results depend on the processing

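Of 15 settings, scaling by library totals alone moved the results most. The count of lower members was 21 instead of 42 there, and 4 log2 fold changes changed sign: Cox5a to 0.0011, Cox6b1 to 0.11, Cox7a2 to 0.11 and Atp5sl to 0.092, none past the threshold. The count of higher members was 2 in every setting, and 23 members (21 lower, 2 higher) were called the same way in all of them. Leaving out 1 library at a time gave 36 to 44 lower members, and 34 lower and 2 higher members were called in each of these fits; where 1 Control-CMs library was left, it was assumed to vary like the other group. The other settings gave 41 to 43 lower members. A mean of at least 5 scaled RPKM left 48 members to test. The broad-to-muscle log2 ratio differences ranged from 2.82 to 2.98 (Cox6a), 1.13 to 1.43 (Cox7a) and 2.13 to 2.28 (Cox8) when a library was left out, and the mitochondrial share difference from -10.2 to -8.03 points. No paired analysis was possible because OSKM-CMs and Control-CMs have only replicate number 3 in common. Depth limits Cox4i2 and Atp5l-ps1, which rest on few reads.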

Other observations

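Nuclear regulators known to act on these genes gave mixed values. Of 15 tested, 4 fell, 1 rose and 10 did not pass (limma, adjusted p), beside 14.4% of all genes lower and 15.7% higher. Ppara, a fatty acid-sensing receptor, changed by -1.41 on the log2 scale, Mef2a by -0.66, Esrrg by -0.65 and Esrra by -0.54, and Mef2c, a muscle transcription factor, rose by 0.50.

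Of 10 tested genes for transcription and copying of mitochondrial DNA, 2 fell, beside the same 14.4% of all genes: Polg, the DNA polymerase, by 0.68 and Mterfd3 by 0.62. All 13 mitochondrial DNA genes in the table fell, with a median log2 fold change of -1.49. mt-Co1 took 74.2% ± 0.23 of the reads of these 13 genes in OSKM-CMs and 73.7% ± 0.84 in Control-CMs (SD).

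Of the remaining marker lists, the only erythroid gene in the table fell, as did the only skeletal muscle gene tested, and 1 of the neural and Schwann markers rose. No epicardial marker of 2 tested passed, and of the 5 fat cell markers none was in the table used here.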
